A study of Mus musculus with 3 samples.

Results

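The clustered histone genes are the many small gene copies that encode the linker histone H1 and the core histones H2A, H2B, H3 and H4. They were taken as the genes with a symbol beginning Hist1h, Hist2h, Hist3h or Hist4h and a protein-coding transcript, which gave 67 of 55536 annotated genes and of 22028 protein-coding genes. By family these were 6 H1, 18 H2A, 18 H2B, 12 H3 and 13 H4 genes, and 3 pseudogenes (Hist1h2aj, Hist1h2al and Hist3h2bb-ps, at most 0.56 TPM in a library) fell outside. The libraries came from 1 group of 3 biological replicates: primary macrophages grown from the bone marrow of C57BL/6J mice, stimulated for 90 minutes with lipid A, the part of bacterial lipopolysaccharide that Toll-like receptor 4 detects, at 100 ng/ml. RNA of the chromatin fraction was sequenced after removal of ribosomal RNA, and the labels name no selection for poly(A) tails. All 3 libraries carried the same donor label, sex and age were not recorded, and starting RNA was 1 µg, 250 ng and 500 ng for replicates 1, 2 and 3, so the effect of the amount cannot be told apart from the replicate. Every value is a level in stimulated cells, as no unstimulated library is used here.

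Most of these genes are transcribed during S phase, when new DNA is packaged. Their mRNAs usually have no introns and end not in a poly(A) tail but just behind a short stem-loop in the 3′ untranslated region, which the stem-loop binding protein SLBP holds and the U7 ribonucleoprotein helps to cut. Many replacement variants, such as H3.3, are by contrast encoded by genes outside these clusters with polyadenylated mRNAs and are made throughout the cell cycle. Macrophages from bone marrow divide in culture while colony-stimulating factor 1 is present.

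A perfect hairpin of 6 paired bases around a loop of 4 bases was found within 100 bases after the stop codon in 44 of the 67 genes, in 6 versions. The search took only hairpins that begin with GG, end with CC and open the loop with TT. No hairpin could be found in the 15 genes annotated to end at or near the stop codon. The hairpins found are shown for 5 of the genes with the highest levels or a call, because the annotated transcripts differ mainly in how far they run behind the hairpin. The sequences are those of the GENCODE M21 transcripts, 5′ to 3′ with T for U, with the hairpin in capitals:
Hist1h4m: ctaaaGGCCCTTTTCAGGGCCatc
Hist2h2aa2: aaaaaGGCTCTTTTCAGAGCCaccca
Hist2h2ac: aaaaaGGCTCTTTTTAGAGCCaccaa
Hist3h2a: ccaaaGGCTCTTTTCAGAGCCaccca
Hist2h4: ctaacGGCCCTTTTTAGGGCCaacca

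The version of Hist2h2aa2 and Hist3h2a was the commonest, in 26 genes of the H1, H2A, H2B and H3 families. The version of Hist1h4m was found in 7 genes, all of them H4 genes. Another 2 H4 genes, Hist1h4i and Hist2h4, shared the version shown for Hist2h4, and that of Hist2h2ac was in no other member. In mm10 coordinates the hairpin of Hist1h4m lies on chromosome 13 at 21812129 to 21812144 on the plus strand, 3 bases before the end of its transcript, whereas the transcript of Hist3h2a runs on for 1643 bases behind the hairpin at 58955172 to 58955187 of chromosome 11.

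The coding sequences are so alike that reads are hard to assign. All 13 H4 genes encode 1 identical protein, the 12 H3 genes encode 2 proteins and the H2A, H2B and H1 genes encode 9, 11 and 6. Coding sequences were identical in 5 pairs, among them Hist1h4m with Hist1h4n and Hist2h2aa1 with Hist2h2aa2. Of all 50-base windows in a gene's transcripts, the median gene had 50.3% found in no other gene, with family medians of 98.9% in H1 and 27.0% in H2A. Hist1h1a and Hist2h2be consisted of such windows alone, while Hist2h2aa2 had none. The deposited posterior SD of the count, a measure of how uncertain the assignment was, was above 0 in 54 of 67 genes and reached 5.59 counts.

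Clustered histone RNA was scarce in this fraction. Expected counts, which estimate how many reads belong to a gene, summed over the 67 genes to 506.49 of 11277198 in replicate 1, 937.88 of 24965749 in replicate 2 and 643.84 of 19794886 in replicate 3. These sums were 44.9 CPM (counts scaled to a common library total; 95% Wilson interval 41.1 to 49.0), 37.6 (35.2 to 40.1) and 32.5 (30.1 to 35.1), with intervals that cover counting error only. In TPM, transcript abundance corrected for length and scaled to a common total, the genes together held 56.3, 93.5 and 67.4 TPM, or 0.0241%, 0.0632% and 0.0353% of all protein-coding TPM. Replicate 2 therefore had the highest length-corrected share while replicate 1 had the highest CPM. A second quantification, made without an alignment file, gave sums of 73.3, 48.3 and 64.4 TPM, lowest in replicate 2, but as shares of its protein-coding TPM these were 0.0163%, 0.0325% and 0.0240%, again highest in replicate 2. Hist3h2a held 41.3%, 11.3% and 18.7% of the counts in replicates 1, 2 and 3, and without it the sums were 26.8, 33.4 and 26.5 CPM. Divided by protein-coding counts alone, with Hist3h2a kept, the sums were 0.00656%, 0.00935% and 0.00646%, again highest in replicate 2. The order in CPM thus changed both without this gene and with another total. Of the 60 genes with any count, 38 had their highest TPM in replicate 2, 13 in replicate 3 and 9 in replicate 1. The same share over all genes was not counted, and 22, 11 and 17 histone genes were at 0 in replicates 1, 2 and 3. The median expressed protein-coding gene was lowest in replicate 2 (5.5, 3.7 and 4.93 TPM in replicates 1, 2 and 3). In bulk RNA, fewer cells that express a gene and less RNA per cell cannot be told apart.

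The libraries differed in composition, which TMM scaling factors of 1.44, 0.726 and 0.956 for replicates 1, 2 and 3 reflect. All 10 macrophage markers were detected, with sums of 1256, 727 and 927 TPM, as the label has it. Markers of other cells were low by alignment: 6 neutrophil markers summed to between 0 and 1.44 TPM with Elane, Mpo and Ly6g at 0, 7 lymphocyte markers to between 0.36 and 1.82 TPM with Cd3e, Cd8a and Ncr1 at 0, 6 erythroid and progenitor markers to between 0.45 and 1.96 TPM with Cd34 and Hbb-bs at 0, and 5 stromal markers to between 0.07 and 1.59 TPM. The alignment-free sums in replicates 1, 2 and 3 were 1.81, 1.09 and 0.787 TPM for neutrophil, 25.1, 10.5 and 17.3 TPM for lymphocyte, 6.96, 0.767 and 2.18 TPM for erythroid and progenitor, and 2.98, 1.60 and 3.30 TPM for stromal markers. Most of the lymphocyte sum lay on Cd3d (21.5, 8.7 and 14.6 TPM), and Cd8a, Mpo and Cd34, at 0 by alignment, reached 1.72, 1.38 and 4.11 TPM in replicate 1. The library with the most neutrophil marker TPM was replicate 2 by alignment and replicate 1 without it. The part of other cells in the histone values was not tested.

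**Figure D1:**
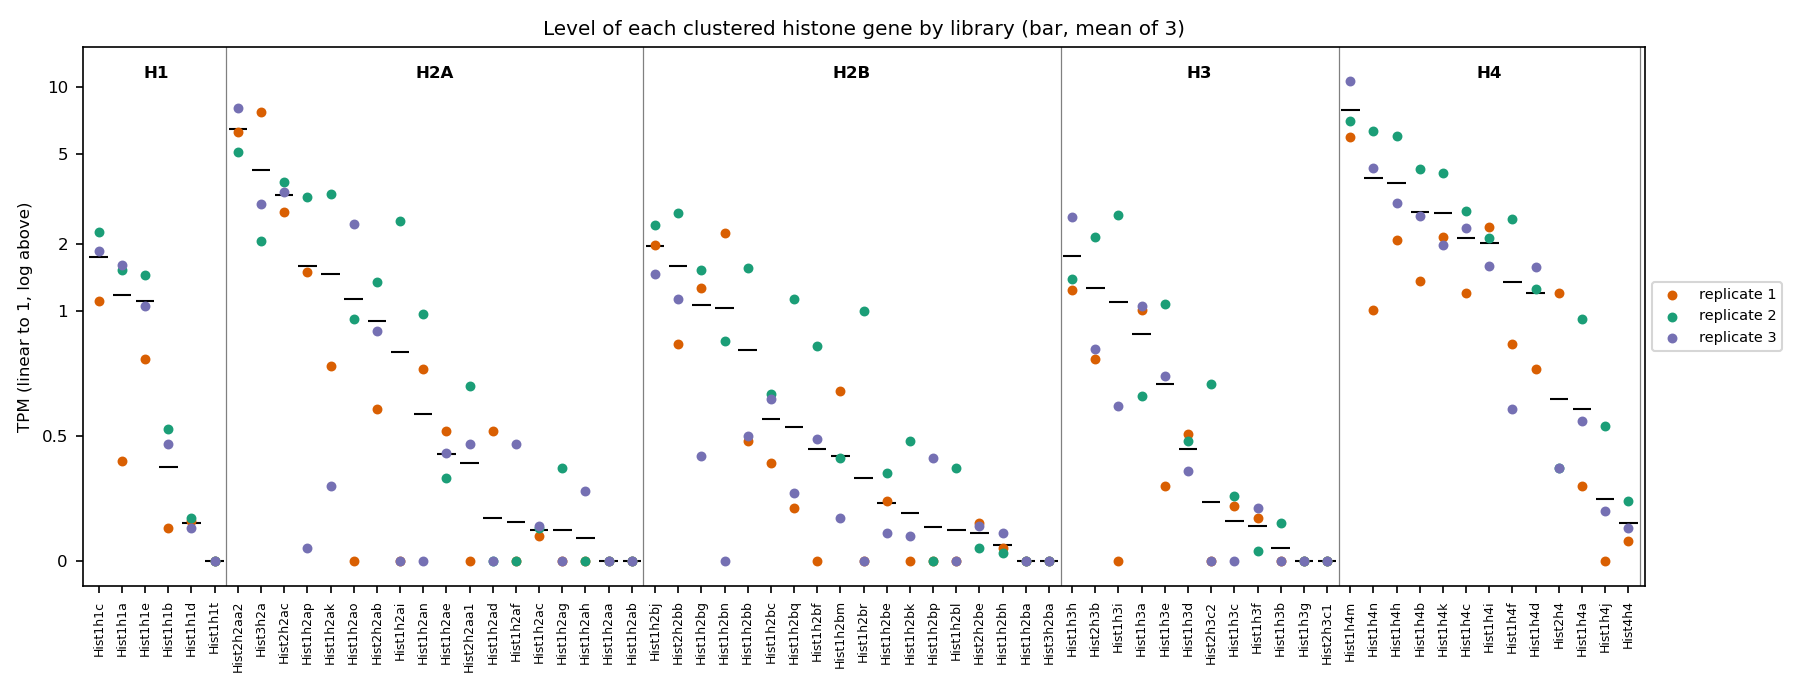
TPM of each of the 67 histone genes (x axis, ordered by mean within family) in the 3 libraries (points; bars, mean of 3; y axis linear to 1 TPM and logarithmic above). H4 genes reached the highest levels, up to 10.54 TPM for Hist1h4m in replicate 3, and 7 genes of the other families lay at 0 in every library.

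The H4 family was the most abundant per gene, with no member at 0 in all libraries. Its 13 genes summed to 19.4, 38.7 and 29.9 TPM in replicates 1, 2 and 3, which was 34.4%, 41.4% and 44.4% of the histone TPM, and their median level was 2.02 TPM against 0.343 TPM for H3, 0.377 for H2B, 0.507 for H2A and 0.742 for H1. A mean expected count of at least 10, the minimum for testing, was reached by 16 of the 67 genes (23.9%), compared with 47.8% of all protein-coding genes: 7 H4, 4 H1, 3 H2A, 2 H2B and no H3 genes. The 16 are those that could be tested and do not stand for the rest. Over all members the median of the mean TPM was 0.57, and over all protein-coding genes, many of them silent, it was 0.213.

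Hist1h4m, an H4 gene in the large chromosome 13 cluster, measured 5.99, 7.06 and 10.54 TPM in replicates 1, 2 and 3, from only 16.29, 29.22 and 37.05 counts over an effective length of 194 and 151 bases in replicates 1 and 2. Its twin in coding sequence, Hist1h4n, measured 1.01, 6.36 and 4.36 TPM, low in replicate 1 and overlapping with Hist1h4m in its upper values. The split between these 2 genes is uncertain, since 10.2% and 14.4% of their 50-base windows were unique. Hist1h4h measured 2.07, 6.05 and 3.02 TPM, highest in replicate 2.

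Hist1h4c measured 1.21, 2.79 and 2.34 TPM, and Hist1h4i 2.36, 2.11 and 1.59 TPM, so the first was lowest and the second highest in replicate 1. Hist1h4d stood at 0.77, 1.25 and 1.58 TPM. Hist2h4, the H4 gene of the chromosome 3 cluster, went the other way from the family sum, with 1.21, 0.37 and 0.37 TPM, and its value in replicate 1 was above both others.

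Among the H2A genes 3 stood apart. Hist2h2aa2 measured 6.29, 5.09 and 8.01 TPM, with no library far from the others, but its coding sequence is that of Hist2h2aa1 (0, 0.7 and 0.47 TPM) and the antisense gene Gm20632 covers 100% of it. Hist2h2ac measured 2.76, 3.77 and 3.39 TPM. Hist3h2a, one of 2 members on chromosome 11, measured 7.71, 2.06 and 2.99 TPM from 209.35, 106 and 120.58 counts, with replicate 1 well above both others. An exon overlap of 708 of its 2146 bases with Trim17, a ubiquitin ligase gene on the same strand, leaves part of these counts uncertain; Trim17 had 76, 70 and 62.42 counts. As the strand setting of the counting is not given in the sources used here, reads of antisense partners cannot be told apart.

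The H1 genes, which encode linker histones that bind the DNA between nucleosomes, were longer and easier to assign. Hist1h1c was the highest, at 1.11, 2.25 and 1.86 TPM and 21, 80 and 52 counts, followed by Hist1h1a at 0.40, 1.52 and 1.61 TPM and Hist1h1e at 0.81, 1.45 and 1.06 TPM. All 3 were lowest in replicate 1. Hist1h1d stood at 0.16, 0.17 and 0.13 TPM, nearly the same in each library, over a transcript annotated with 7425 bases.

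H2B and H3 genes were the lowest. Hist1h2bj had the highest mean of the H2B genes, with 1.97, 2.43 and 1.47 TPM, and the H2B genes that could be tested were Hist1h2bc (0.39, 0.67 and 0.65 TPM) and Hist1h2be (0.24, 0.35 and 0.11 TPM). Hist1h2be shares 496 exon bases with Hist1h1e on the same strand. Among H3 genes Hist1h3h was highest, at 1.24, 1.39 and 2.63 TPM, from 3.52, 6.06 and 9.71 counts.

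In every library 7 of the 67 genes were at 0 expected counts, as were 7441 of all 22028 protein-coding genes. A count of 0 allows up to 3 counts, or 0.266, 0.12 and 0.152 CPM in replicates 1, 2 and 3, for counting error only. They include Hist1h1t, Hist1h2aa and Hist1h2ba, which encode variants known from testis and are named here after their values were seen. The alignment-free quantification placed 1 count on Hist1h1t in replicate 2 and none on Hist1h2aa and Hist1h2ba.

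To place the genes among the others of the fraction, a level was defined as log2(TPM + 1) minus the median of the expressed protein-coding genes of that library. It was tested with limma's treat over 13434 genes, against a distance of 1 log2 unit to either side. None of the 16 histone genes tested was called above the bound, where 21.3% of all genes were, and none had an unadjusted p under 0.05 in that direction. Below it 4 were called, where 21.3% of all genes were: Hist1h1d at -2.29 ± 0.25 (SD, n = 3; adjusted p 0.000915), Hist1h2be at -2.20 ± 0.35 (adjusted p 0.00159), Hist1h2bc at -1.85 ± 0.37 (adjusted p 0.00664) and Hist2h4 at -1.82 ± 0.28 (adjusted p 0.00572), all by limma's treat with Benjamini-Hochberg adjustment. This is 4 of 16, a share near that of all genes. A gene at 0 TPM in every library has a level of -2.50 ± 0.24, so Hist1h1d and Hist1h2be lay near the floor. The SD of 0.24 at 0 TPM comes from the reference alone, and the SD of Hist1h1d is close to it. TPM depends on the annotated length, which is 7425 bases for Hist1h1d, up to 2506 for Hist1h2be, 1630 for Hist2h4 and 1156 for Hist1h2bc. Hist1h1d averaged 23 counts, and Hist1h1a, with 741 bases and not called, 13.3. Other genes with over 1000 bases, Hist1h1c, Hist1h1e, Hist1h4d and Hist3h2a, were not called. The part of length in the calls was not tested. The median level was -0.99 over the 16 genes and -0.21 over all genes tested.

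The highest levels were those of Hist1h4m (0.61 ± 0.45) and Hist2h2aa2 (0.38 ± 0.22), the only 2 of the 16 with a mean above the reference, and both fell below it with alignment-free TPM. In 10 of the 16 genes every library lay below the reference. The reference is a median, so many expressed genes lie below it by definition, and the same share over all genes was not counted. Without replicate 1 the count called below was 7 of 22 genes tested, where 24.2% of all genes were. Without replicate 2 it was 3 of 14, where 17.1% of all genes were, and Hist1h2bc and Hist1h2be then had too few counts to be tested. With alignment-free TPM it was 10 of 16, where 22.7% of all genes were. Hist2h4 missed the threshold without replicate 3 (limma treat, adjusted p 0.0812).

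**Figure D2:**
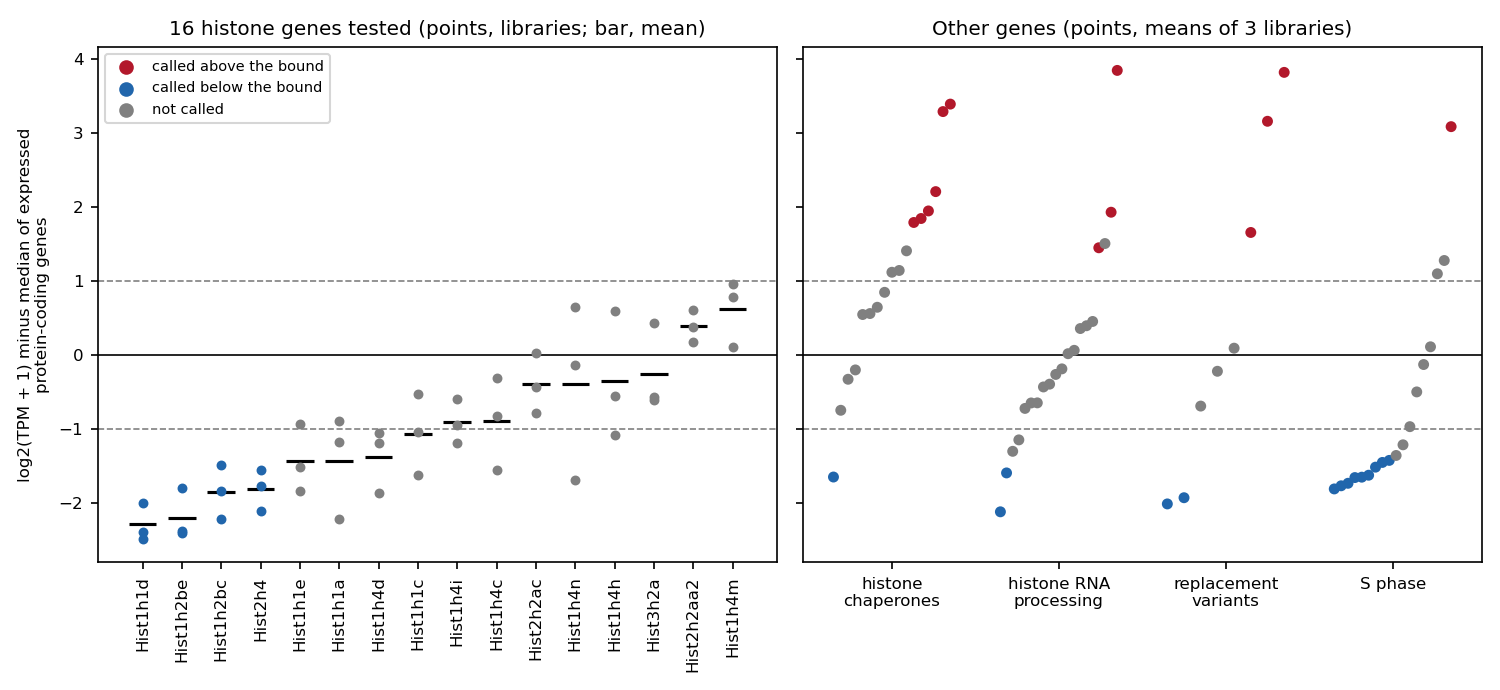
Levels, as log2(TPM + 1) minus the median of the expressed protein-coding genes, of the 16 histone genes tested (left: points, 3 libraries; bars, means) and of 4 lists of related genes (right: means of 3 libraries), with dashed lines at the bound of 1 log2 unit. The 4 histone genes called below (blue) reach -2.29, near the mean level of -2.50 of a gene at 0 TPM. No histone gene is called above (red), while chaperone, processing, variant and S-phase genes reach levels above 3.

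The median spread between the 3 libraries was larger over the histone genes tested than over all genes tested. The median SD of log2 TMM-scaled CPM was 0.675 over the 16 genes, 0.399 over all 13434 genes tested, and 0.446 over the 6927 genes within the same range of mean log2 CPM. Hist3h2a alone set the upper end of that range (log2 CPM 3.72, 2.58 and 2.70 in replicates 1, 2 and 3). The 6927 genes thus include some more abundant than the other histone genes tested, and are not matched to them in abundance. Hist1h4n varied most (SD 1.34) and Hist2h2aa2 least (SD 0.269). Without replicate 1 the median SD over the histone genes was 0.491.

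Replacement variants, which are encoded outside the clusters, held high and low members. Of 11 genes 8 were tested, with 3 called above, 2 below and a median of -0.07. Of all genes tested, 21.3% were called above and 21.3% below. The difference of the variants from the clustered genes was not tested. H2afy, which encodes the large variant macroH2A, measured 66.83, 78.04 and 93.46 TPM (level 3.82 ± 0.38), H3f3b, one of the H3.3 genes, 57.94, 44.16 and 47.11 TPM (level 3.16 ± 0.12), and H2afz, which encodes H2A.Z, 28.37, 9.26 and 17.66 TPM (level 1.65 ± 0.52). The 67 clustered genes together held 56.3, 93.5 and 67.4 TPM, which H2afy exceeded in replicates 1 and 3 and H3f3b in replicate 1. The 2 called below were H1f0 (level -1.93 ± 0.20), a linker histone of resting cells, and H2afx (-2.02 ± 0.53), which marks DNA breaks when phosphorylated. The lowest variants by mean TPM were H2afy2 at 0.25, 0.15 and 0.28 TPM and H1fx, listed at 0 in each library.

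Genes that transcribe and process histone RNA were all expressed: 20 of 20 passed the count minimum, with 3 called above, 2 below (21.3% of all genes each way) and a median of -0.23. The highest were Srrt, which encodes the cap-associated factor ARS2, at 86.52, 64.34 and 92.59 TPM, Hinfp, a transcription factor for H4 genes, at 28.91, 14.26 and 20.76 TPM, and Upf1, a helicase of RNA decay, at 10.78, 15.88 and 19.72 TPM. Srrt, Hinfp and Sympk, a scaffold of the cleavage machinery (level 1.44 ± 0.14), were called above and Upf1 was not (limma treat, adjusted p 0.0839). The 2 lowest were both called below: Lsm11, a U7-specific ring protein, with 1.23, 0.69 and 0.73 TPM, and Zfp473, whose product binds the U7 particle, with 0.48, 0.21 and 0.22 TPM. Slbp, named here after its values were seen because it encodes the stem-loop binding protein, measured 9.89, 4.07 and 5.84 TPM, a level of 0.35 ± 0.34 that was not called.

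Of the histone chaperones, which carry histones to and from DNA, 17 of 18 were tested, with 6 called above, 1 below (21.3% of all genes each way) and a median of 1.11. The highest were Daxx (91.44, 33.95 and 63.23 TPM) and Atrx (57.05, 47.01 and 59.36 TPM), which together deposit H3.3, and Npm1 (29.08, 20.33 and 26.63 TPM). The lowest were Asf1b (0.16, 0.05 and 0 TPM), which was not tested, and Chaf1a (0.9, 0.82 and 0.68 TPM), a subunit of the assembly factor CAF-1 that acts at replication forks and the 1 called below.

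Of 21 S-phase and proliferation genes, 18 were tested, with 1 called above, 9 below (21.3% of all genes each way) and a median of -1.40, below that of the histone genes. The proliferation marker Mki67 was the 1 called above, at 55.84, 34.17 and 54.08 TPM. Pcna, the sliding clamp of replication, followed at 25.67, 6.84 and 11.23 TPM and Tk1, thymidine kinase, at 16.36, 8.82 and 9.32 TPM, neither called. At the low end Rrm2 stood at 0.47, 0.06 and 0.02 TPM and Cdc6 at 0.16, 0.08 and 0.04 TPM. The list summed to 131, 71.0 and 98.8 TPM, lowest in replicate 2, where the histone sum was highest by alignment. Mki67, Pcna and Tk1 made up most of this sum. Of the low genes, Mcm3, E2f1 and Cdk1 were highest in replicate 2, while others, such as Mcm6, Tyms and Mcm5, were lowest there. The alignment-free sums, 254, 65.4 and 124 TPM for the list, were lowest in replicate 2 for both the list and the histone genes. As shares of protein-coding TPM the list was lowest and the histone genes highest in replicate 2 in both quantifications. With the median of all genes as the reference, which lowered the reference by 0.206 log2 units, the genes of the 4 lists called below were 5, against 14 in the main fit. The share called below over all genes tested was 15.5%, against 21.3% in the main fit.

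Histone counts lay mainly in genes whose annotated transcripts run far behind the stem-loop. The genes were sorted by their annotated 3′ end. The 22 genes that run more than 100 bases past the hairpin held 72.1%, 55.2% and 57.5% of the counts in replicates 1, 2 and 3, the 22 that end within 100 bases of it 19.6%, 28.4% and 29.1%, the 15 that end at or near the stop codon 4.23%, 8.72% and 4.95%, and the 8 with no hairpin found 4.10%, 7.70% and 8.49%. Longer transcripts take more reads at the same level, and per length the order was the reverse in each library: the genes ending near the hairpin summed to 26.73, 47.28 and 39.74 TPM and those running past it to 18.58, 17.9 and 14.77 TPM. Without Hist3h2a the share of counts in genes running past the hairpin was 52.4%, 49.5% and 47.7%. These shares describe whole annotated genes and do not show whether the reads themselves lay behind the hairpin.

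**Figure D3:**
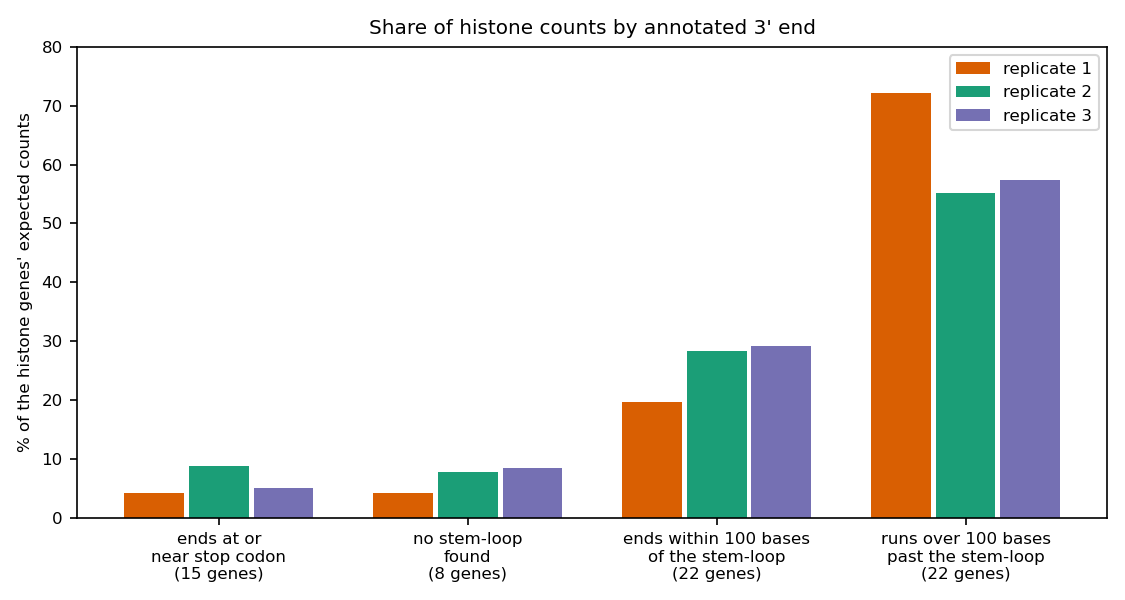
Percent of the histone genes' expected counts (y axis) in genes sorted by the annotated 3′ end (x axis, number of genes in brackets), for the 3 libraries (bars, 1 library each, without error bars). Genes that run over 100 bases past the stem-loop hold 55.2% to 72.1% of the counts.

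By transcript length the picture was alike. Of 75 annotated transcripts of the 67 genes, 23 are longer than 1000 bases, and they held 66.6%, 45.7% and 52.1% of the expected counts in replicates 1, 2 and 3. Here too longer transcripts take more reads at the same level. The 23 include that of Hist3h2a, a gene with 41.3%, 11.3% and 18.7% of the counts, and the shares without it were not computed. In the alignment-free quantification the same transcripts held 81.5%, 55.7% and 60.9%.

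The alignment-free quantification, which assigns reads to transcripts without an alignment file, gave more histone counts, but not more per library total in every library. Its sums were 65, 32.1 and 32.9 CPM, above the alignment-based 44.9 CPM in replicate 1, below 37.6 CPM in replicate 2 and near 32.5 CPM in replicate 3. Of single genes, 31 of the 67 had more counts by it in all 3 libraries while 1, Hist1h2ap, had fewer. The alignment-free totals were also higher (18505418, 45614572 and 34217429 counts), and the same share over all genes was not counted. Much of the histone excess fell on a few long transcripts, named here after their values were seen. Hist2h2be, an H2B gene of the chromosome 3 cluster, had 5, 3 and 7 counts by alignment and 316, 82.0 and 70.0 without it, although no 50-base window of it occurs in another gene. Hist1h1d had 16, 33 and 20 against 144, 115 and 91.4 counts.

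Hist4h4, the single member on chromosome 6, had 3, 17 and 7 against 57.5, 64.4 and 70.6 counts. Hist1h2bq had 3.07, 8.28 and 10 against 42.9, 57.0 and 64.0 counts, and in the second case they lay on an isoform of 2015 bases annotated as a target of nonsense-mediated decay. These 4 genes made up 534 of 696, 257 of 526 and 252 of 483 additional counts in replicates 1, 2 and 3. Which quantification is nearer the truth was not tested.

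Relative to the reference of its own quantification, each of the 16 tested genes had a lower mean level without an alignment. That reference was 11.9, 4.15 and 7.63 TPM in replicates 1, 2 and 3. By alignment it was 5.5, 3.7 and 4.93 TPM. As 1 is added to each TPM, a gene near 0 can have a lower level though its TPM is higher. Hist1h1d measured 0.16, 0.17 and 0.13 TPM by alignment and 1.2, 0.282 and 0.364 TPM without it. Genes entered this comparison by their alignment-based count alone, which left out Hist2h2be, Hist4h4 and Hist1h2bq (means of 5, 9 and 7.12 counts). Genes with more counts without an alignment could thus be missed, and the 16 do not stand for the rest. The median difference in level was -0.79 over the 16 genes and -0.23 over all 13427 genes. Among the 16 it ranged from -0.11 for Hist1h1d to -1.27 ± 0.24 (SD, n = 3) for Hist1h4m. None passed limma's treat test with a bound of 1 log2 unit after Benjamini-Hochberg adjustment, where 1.9% of all genes were called higher and 0.633% lower. Hist1h4m alone had an unadjusted p under 0.05 (0.0333, adjusted p 0.747, limma treat).

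**Figure D4:**
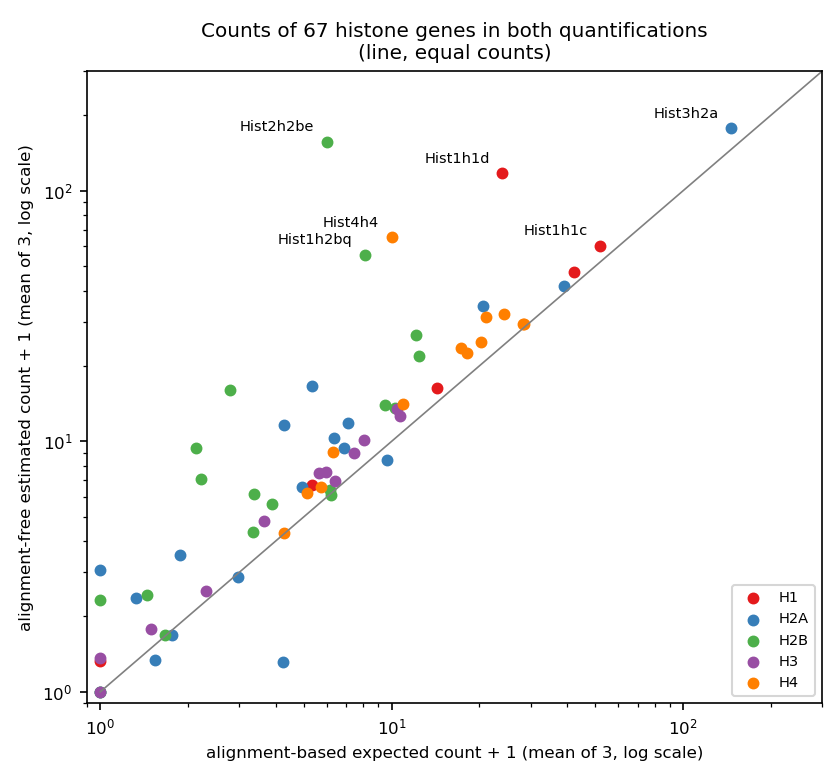
Mean alignment-free estimated count plus 1 (y axis) against mean alignment-based expected count plus 1 (x axis) of the 67 histone genes, both on log scales, coloured by family, with a line of equal counts. Hist2h2be, Hist1h1d, Hist4h4 and Hist1h2bq lie far above the line, and most other genes lie near it or moderately above.

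The genes lie in 4 named clusters. On chromosome 13 the Hist1 genes form a block of 23 members at 21715763 to 22043676 and one of 31 members at 23531050 to 23934851 (mm10), with 21.01, 42.88 and 27.88 TPM and 14.8, 31.4 and 21.1 TPM in replicates 1, 2 and 3. The 10 Hist2 genes at 96219865 to 96270132 of chromosome 3 summed to 12.7, 16.9 and 15.3 TPM. Of the 9 other protein-coding genes between the Hist1 genes, the iron regulator Hfe was the highest, at 1.29, 0.38 and 1.35 TPM, and Slc17a1, Slc17a3, Slc17a4 and Pom121l2 were at 0 in each library. The neighbours in these gaps thus had little or no RNA in the fraction.

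RefSeq promoter windows (GRCm38.p6, 250 bases before to 50 after the start) were matched by symbol or synonym for 61 of the 67 genes (not Hist1h2bc, Hist1h3a, Hist1h3f, Hist2h2be and Hist2h4, nor Hist1h2ap, which matched 2 entries). The motifs searched, on both strands and none a part of another, were the TATA box as TATAAA, the CCAAT box as CCAAT and the octamer, a binding sequence of Oct factors, as ATTTGCAT. TATAAA was in 57.4% of the histone windows and 13.6% of all 32851 windows, CCAAT in 85.2% and 37.4%, and the octamer in 23.0% and 1.74%. By family TATAAA was in 66.7% of H1, 64.7% of H2A, 50% of H2B, 40% of H3 and 66.7% of H4 windows. CCAAT was in all 49 matched H1, H2A, H2B and H3 windows but in 3 of 12 H4 windows, and the octamer was in windows of 7 H2A and 7 H2B genes and of no H1, H3 or H4 gene. Hist1h2be alone had 2 windows, which were pooled: one 30 bases from the GENCODE start without an octamer and one 35154 bases away with it. Counting the nearer one only, the octamer was in 6 H2B genes and in 21.3% of the 61 genes, and the other motif counts were the same. The windows are not independent, since 9 pairs of an H2A and an H2B gene on opposite strands share part of theirs. For Hist1h1d the RefSeq start lies 1770 bases from the GENCODE start, so the window may not be the one in use there.

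As examples, the 150 bases before the RefSeq start are printed for the gene with the highest mean TPM of each family, 5′ to 3′ on the gene's strand, with TATAAA and CCAAT matches on either strand in capitals:
Hist1h1c (chr13:23738657-23738806, + strand): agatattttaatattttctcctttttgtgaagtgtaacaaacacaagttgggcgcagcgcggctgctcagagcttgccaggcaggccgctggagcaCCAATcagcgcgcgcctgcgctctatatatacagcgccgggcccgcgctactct
Hist2h2aa2 (chr3:96240375-96240524, - strand): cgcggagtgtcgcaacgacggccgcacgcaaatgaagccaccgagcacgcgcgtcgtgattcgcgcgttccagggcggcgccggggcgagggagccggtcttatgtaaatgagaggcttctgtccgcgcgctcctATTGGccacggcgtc
Hist1h2bj (chr13:22043048-22043197, + strand): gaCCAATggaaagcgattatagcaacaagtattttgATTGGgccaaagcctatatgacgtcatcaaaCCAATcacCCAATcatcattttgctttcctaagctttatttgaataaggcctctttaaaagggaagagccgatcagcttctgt
Hist1h3h (chr13:21717478-21717627, + strand): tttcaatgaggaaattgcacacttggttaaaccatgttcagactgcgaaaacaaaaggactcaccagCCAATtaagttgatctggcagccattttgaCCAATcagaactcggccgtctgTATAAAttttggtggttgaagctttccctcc
Hist1h4m (chr13:21811596-21811745, + strand): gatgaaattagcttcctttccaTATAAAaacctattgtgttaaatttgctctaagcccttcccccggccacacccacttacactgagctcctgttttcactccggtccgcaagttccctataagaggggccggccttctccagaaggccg

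Hist1h4m, the highest of all, held a TATAAA match and no CCAAT match. That TATAAA match lies in the part of the printed bases far from the start. Here and in the family counts, exact letters were counted at any position. Like sequences, such as tatatata in Hist1h1c, were not counted. Hist1h2bj held 4 CCAAT matches and no TATAAA match in these bases, Hist1h3h held both kinds, and Hist1h1c and Hist2h2aa2 held 1 CCAAT match each. A single gene does not stand for its family: Hist1h1c and Hist2h2aa2 held no TATAAA match here, unlike most H1 and H2A windows. These matches are descriptions of the letters, and no binding was measured.

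**Figure D5:**
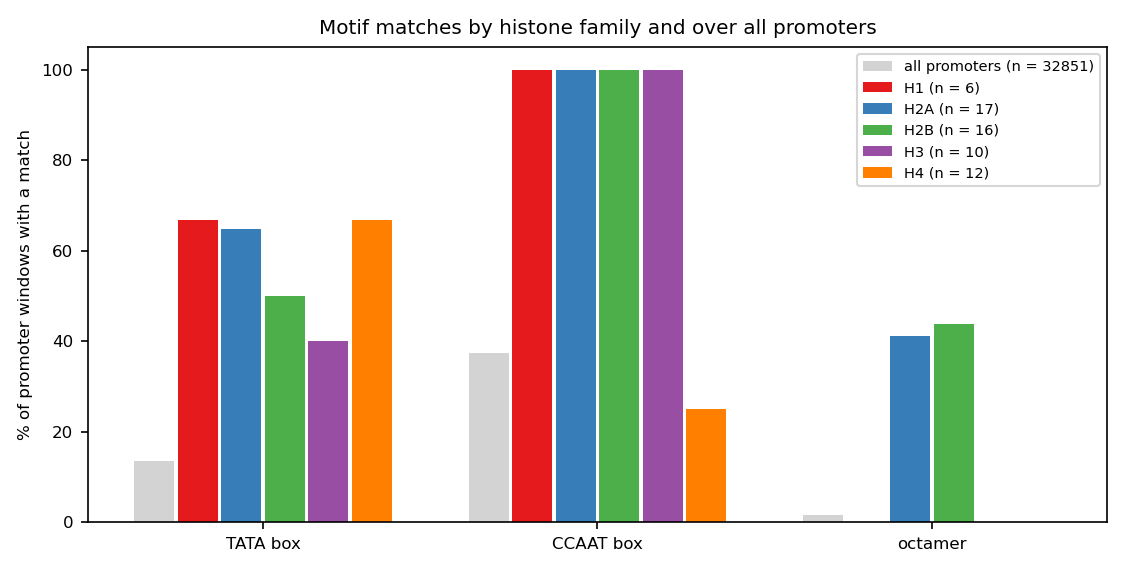
Percent of promoter windows with at least 1 match to each motif (y axis) for all RefSeq promoters and for the matched genes of each histone family (bars, number of windows in the legend). CCAAT is in every matched H1, H2A, H2B and H3 window and in 25% of H4 windows, and the octamer is in H2A and H2B windows alone among the families (2 windows pooled for Hist1h2be).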

How the data were processed

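Expected counts and TPM of genes and transcripts came from the authors' deposited tables, made from alignments to the transcriptome (mm10, GENCODE M21), per the deposited description files; columns are those RSEM writes, per the file headers. A second deposited transcript table with estimated counts and TPM, made from reads without an alignment file, has kallisto's columns, per the file headers, and was summed to genes. Strand setting and the handling of reads with several matches: not given in the sources used here. The authors scaled TPM to 1 sum per file, tRNA and spike-in entries included. The deposited score, a posterior SD of the count, was used as a description only.

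Histone genes and the lists were chosen with earlier results of these data known. Levels and differences between quantifications were tested with limma 3.58.1 (treat, R 4.3.3) on log2(TPM + 1), intercept only, over genes whose expected count averaged 10 or more (tRNA, spike-in and phiX entries left out), with Benjamini-Hochberg adjustment at 0.05. The pseudocount of 1 understates differences between low genes. All 3 libraries share a donor label, so p-values reflect how these libraries differ among themselves, which can be technical. The spread used edgeR 4.0.16 (TMM, prior count 2, expected counts rounded) and, as an alternative, DESeq2 1.42.0 size factors. The treat fit was tested on simulated data. Named genes were every member with a mean count of at least 10, the highest of each family, and the 3 highest and 2 lowest genes of each list. The hairpin search behind the stop codon, the lengths of 100 bases the values without Hist3h2a and the count by nearest promoter window were chosen after seeing the data; the plan named the last 100 bases of the shortest transcript. Alternatives were other pseudocounts, count minimums, references and quantifications, and leaving out each replicate.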

Additional observations from a re-analysis of the deposited data

How the results depend on the processing

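No paired analysis was possible because the series holds 1 group. Low counts limit every value here: 51 of 67 histone genes were under the count minimum. The count of histone genes called below, 4, became 10 with alignment-free TPM (22.7% of all genes), 0 with a minimum of 100 counts (1 histone gene left to test; 10.6% of all genes), and ranged from 3 to 7 when a replicate was left out (11.5% to 24.2% of all genes); those called above stayed at 0 except with no minimum on counts, where silent genes enter the reference, the reference fell by 2.24 log2 units, 3 were called above (Hist2h2aa2, Hist2h2ac and Hist1h4m; 13.2% of all genes) and 0 below. In that setting the median level became 0.345 and 13 levels changed sign: Hist1h2bc 0.39, Hist1h1c 1.17, Hist1h2be 0.0395, Hist1h1a 0.81, Hist1h1e 0.81, Hist1h4i 1.33, Hist1h4c 1.34, Hist1h4h 1.89, Hist1h4d 0.86, Hist2h2ac 1.84, Hist1h4n 1.84, Hist3h2a 1.99 and Hist2h4 0.43. With alignment-free TPM the median was -1.88 (against -0.99), Hist2h2aa2 stood at -0.71 and Hist1h4m at -0.66; the cause was not tested. With a replicate left out Hist1h4h ranged from -0.833 to 0.024 and Hist1h4n from -0.931 to 0.263, both above the reference without replicate 1. List genes called above were 37 with no minimum, 6 with a minimum of 100 and 10 to 16 with a replicate left out. Over all genes these shares were 13.2%, 17.8%, and 17.9% to 22.9%. List genes called below were 0, 3, and 3 to 16 in these settings, and 5 with all genes as the reference. Over all genes the shares called below were 0%, 10.6%, 11.5% to 24.2%, and 15.5%. The histone share of protein-coding abundance was 0.00746% in expected counts, which are not divided by length, against 0.0409% in TPM, 0.0243% in alignment-free TPM, and 0.0297% to 0.0492% with a replicate left out. Counts in transcripts over 1000 bases, 54.8% on average, were 66.0% alignment-free and also 66.0% for transcripts over 700 bases. The share in genes running over 100 bases past the hairpin, 61.6%, was 82.1% for over 20 bases and 49.9% without Hist3h2a. No histone gene was called different between quantifications in any setting.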
